A study of Mus musculus with 2 samples.

Results

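The genes of MHC class I antigen presentation were followed in mammary basal cells with and without macrophage depletion. They comprised 10 genes of the 49492 in the count table, taken by name: the classical heavy chains *H2-K1* and *H2-D1*, the light chain *B2m*, the peptide transporter genes *Tap1* and *Tap2*, the loading factor *Tapbp*, the immunoproteasome subunits *Psmb8*, *Psmb9* and *Psmb10*, and the transactivator *Nlrc5*. The set was chosen by the change of these genes between the same libraries that are described here, so its values are given as a description and no test was made on them. All 10 passed the filter for low values (a sum of at least 20 counts over CL basal and Ctrl basal), as did 17356 genes of the table.

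MHC class I molecules stand on the surface of nearly all nucleated cells and show CD8 T cells short peptides made from the proteins of the cell itself. Proteasomes cut the proteins, a transporter of Tap1 and Tap2 carries the peptides into the endoplasmic reticulum, and tapasin, encoded by *Tapbp*, holds empty class I molecules at the transporter until a peptide fits. Interferons raise most genes of this pathway, partly through the transactivator Nlrc5, and exchange the catalytic subunits of the proteasome for those of the immunoproteasome. Basal cells form the outer layer of the mammary epithelium, which contracts to expel milk and holds stem cells.

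The basal cells were sorted from adult female wild-type mice (labelled genotype WT) as cells without the lineage markers CD45, CD31 and TER119 and with CD24 and high CD29, and the CL basal library came from mice given repeated intraperitoneal injections of clodronate liposomes, vesicles that kill the phagocytes that take them up. The Ctrl basal library came from mice with the treatment label none, although the design text of the series names saline. Both libraries were labelled day 7, and the strain of the sequenced mice and the number of mice behind each library were not given in the sources used here. There was 1 library per group, so the spread between samples is unknown for each value below, and treatment, animals and library preparation cannot be told apart.

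The CL basal library held 38962512 counts and the Ctrl basal library 37846008, and a count of 0 allowed a level of up to 0.078 and 0.0782 CPM (counts scaled to the effective library size). All 10 markers of basal cells were detected, with a summed level of 18964.5 CPM in CL basal and 18326.2 CPM in Ctrl basal, and none was past 1.5-fold in either direction. The 11 luminal markers summed to 2299 CPM in CL basal and 3974 CPM in Ctrl basal. Of these 11, 10 were at least 1.5-fold lower, beside 11.7% of all tested genes. The 8 pan-leukocyte markers, which label cells that carry much class I, summed to 28.8 CPM in CL basal and 32.0 CPM in Ctrl basal. The part of the luminal difference in the values below was not tested, and in bulk RNA fewer cells of a type and less RNA per cell cannot be told apart.

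The stretches upstream of 4 of the genes are shown because these 4 hold both heavy chains, the light chain and the gene with the greatest change of the set. RefSeq promoter windows (GRCm38.p6, 250 bases before to 50 after a start site) matched 8 of the 10 genes by symbol, all except *Tap2* and *Nlrc5*. Printed are the 250 bases before the start site, 5′ to 3′ on the strand of the gene, with capitals for every match to a searched motif. *H2-K1* lies at chr17:34000334-34000583 on the minus strand, *H2-D1* at chr17:35262844-35263093 on the plus strand, *B2m* at chr2:122147437-122147686 on the plus strand and *Tap1* at chr17:34187306-34187555 on the plus strand.
H2-K1: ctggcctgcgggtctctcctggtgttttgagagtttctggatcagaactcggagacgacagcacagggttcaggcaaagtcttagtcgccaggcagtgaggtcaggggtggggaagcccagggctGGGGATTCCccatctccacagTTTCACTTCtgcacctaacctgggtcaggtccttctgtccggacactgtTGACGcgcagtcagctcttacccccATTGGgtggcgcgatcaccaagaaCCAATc
H2-D1: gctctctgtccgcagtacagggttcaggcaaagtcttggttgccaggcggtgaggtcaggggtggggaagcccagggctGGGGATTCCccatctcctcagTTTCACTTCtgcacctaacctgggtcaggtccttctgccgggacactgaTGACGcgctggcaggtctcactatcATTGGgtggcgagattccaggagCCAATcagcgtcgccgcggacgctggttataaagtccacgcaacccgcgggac
B2m: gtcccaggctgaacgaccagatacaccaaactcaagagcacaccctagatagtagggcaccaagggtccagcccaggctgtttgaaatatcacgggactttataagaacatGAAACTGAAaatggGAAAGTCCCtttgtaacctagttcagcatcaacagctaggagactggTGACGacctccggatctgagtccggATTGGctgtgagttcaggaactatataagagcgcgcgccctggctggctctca
Tap1: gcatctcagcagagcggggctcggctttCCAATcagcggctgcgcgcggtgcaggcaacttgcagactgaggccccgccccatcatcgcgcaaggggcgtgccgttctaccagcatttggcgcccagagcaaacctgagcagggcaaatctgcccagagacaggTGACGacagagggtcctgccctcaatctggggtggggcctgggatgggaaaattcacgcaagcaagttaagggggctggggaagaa

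The searched letters, on both strands, were GAAANNGAA and its variant GAANNGAAA, cores of the interferon-stimulated response element, TTCNNNGAA, the gamma-activated site, GGGANTTTC and GGGGATTCC, forms of the kappaB site, TGACG, a core site of CREB and ATF factors that forms part of the X box, and ATTGG, the Y box bound by NF-Y. The variant GAANNGAAA was added after the windows had been read. In *H2-K1* the kappaB letters began at −125, the response element at −104, TGACG at −55 and ATTGG at −30, with a second Y box in the other orientation at −6. *H2-D1* held the same motifs in the same order, at −171, −150, −101, −76 and −53. Both windows were 87.7% identical, 222 of 253 aligned bases. *B2m* held the response element at −139, the other kappaB form at −125, TGACG at −78 and ATTGG at −53, so within the printed bases of these 3 chain genes a kappaB form and a response element stood upstream of the core site, and the core site upstream of the Y box. A further match in *B2m*, the reverse of TGACG at 45 after the start site, lay outside the printed bases. Upstream of *Tap1* only TGACG at −86 and a reversed Y box at −222 were matched. The *Tap1* window overlapped that of its divergent neighbour *Psmb9* by 275 bases, the start sites being 226 bases apart, so these matches are also those of *Psmb9*, at −144 and −8.

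Rare letters were found in few of the windows. GGGGATTCC stood in 2 of the 8 windows of the set and in 0.25% of all 32851 RefSeq windows, and GGGANTTTC in 1 of 8 and in 1.11%. GAAANNGAA stood in 1 of 8 and in 8.56% of all windows, GAANNGAAA in 2 of 8 and in 7.52%, and TTCNNNGAA in 1 of 8, that of *Psmb8* at −97, and in 8.3%. TGACG stood in 5 of 8 and in 20.8% of all windows, and ATTGG in 6 of 8 and in 37.4%. The *Tapbp* window held only the Y box, at −248 and −165, and the *Psmb10* window held no match. The RefSeq start site of the *Tapbp* window lay 3579 bases inside the gene as the count table places it, and those of *Psmb8*, *Psmb9* and *H2-D1* lay 474, 434 and 364 bases inside, so these windows do not border the start of the counted gene. A match describes letters and is not evidence of binding in these cells.

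All 10 genes were higher in CL basal than in Ctrl basal, and they summed to 2852 CPM against 1769.8 CPM. Changes are given as the log2 fold change of CL basal over Ctrl basal after TMM scaling, with a prior count of 2, and with a 95% exact interval that covers counting error only. *H2-K1*, *B2m*, *Tap1* and *Nlrc5* were past 1.5-fold (0.585 on the log2 scale), 4 of 10 genes, and none was past it in the lower direction. Among all tested genes 6.33% were past 1.5-fold higher (1098 genes) and 11.7% lower (2029 genes). Since the same contrast chose the set, nothing is read from the excess. *Tap1* and *Nlrc5* were past 2-fold, where 2.07% of all tested genes lay. The median of the set was 0.54 on the log2 scale, against −0.01 over all tested genes, of which 48.2% were higher in CL basal.

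**Figure D1:**
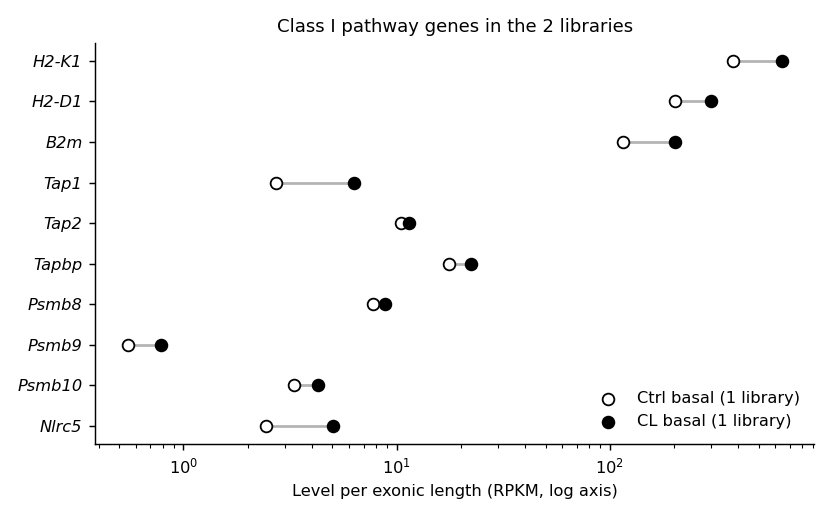
Levels of the 10 class I pathway genes as CPM per kilobase of exon (RPKM, log axis), with open circles for the Ctrl basal library and filled circles for the CL basal library, 1 library each. The filled circle lies to the right for every gene, by the least for *Tap2* (10.5 to 11.5) and by the most for *Tap1* (2.73 to 6.32).

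Per length, the class I chains were by far the most abundant members. *H2-K1*, a classical heavy chain (chr17:33996017-34000333, minus strand), had 64374 counts in CL basal against 37831 in Ctrl basal, which correspond to 642 and 378 RPKM. This was a 1.70-fold difference, 0.76 on the log2 scale (0.74 to 0.78). In RPKM rank, counted from the most abundant gene of the table, it stood at 72 in CL basal and at 130 in Ctrl basal, so it was among the most abundant transcripts of both libraries.

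*H2-D1*, the second classical heavy chain of this locus (chr17:35262730-35267499, plus strand), had 29775 counts against 20006, or 300.3 and 202 RPKM. The difference was 0.57 on the log2 scale (0.54 to 0.60), or 1.48-fold, and thus lay just under the 1.5-fold line. *B2m*, the light chain that every class I heavy chain needs to reach the cell surface (chr2:122147686-122153083, plus strand), had 6697 counts against 3819, or 203 and 116 RPKM. It was 1.75-fold higher, 0.81 on the log2 scale (0.75 to 0.86). *B2m* lies outside the MHC, so the higher counts of the chains were not limited to chromosome 17.

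The light chain was closer to *H2-K1* than to *H2-D1* in its change. The change of *H2-K1* minus that of *B2m* was −0.04 on the log2 scale (−0.10 to 0.02), and the ratio of their RPKM was 3.17 in CL basal and 3.27 in Ctrl basal. *H2-D1* changed less than *B2m*, by −0.24 (−0.30 to −0.17), and less than *H2-K1*, the difference of *H2-K1* minus *H2-D1* being 0.19 (0.16 to 0.23). The ratio of *H2-K1* to *H2-D1* per length was accordingly 2.14 in CL basal and 1.87 in Ctrl basal. These pairs, like those of *Tap1* below, were formed after the values had been seen.

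The heavy chains resemble each other and the Qa genes, so reads can be split among them. Of all stretches of 50 bases in the principal transcript, 8.79% of *H2-K1* and 14.3% of *H2-D1* also occurred in a transcript of another gene, for *H2-K1* most often in *H2-D1* (6.94%) and for *H2-D1* most often in *H2-Q1* (7.4%). At 100 bases the shares were 0% for *H2-K1* and 4.64% for *H2-D1*. No stretch of *B2m* was shared at either length. The read length was not given in the sources used here, so the difference between *H2-K1* and *H2-D1* is uncertain to that extent.

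The transporter genes differed from each other in their change. *Tap1* (chr17:34187553-34197225, plus strand), which encodes a subunit of the peptide transporter, had 1330 counts in CL basal against 574 in Ctrl basal, or 6.32 and 2.73 RPKM. This 2.31-fold difference, 1.21 on the log2 scale (1.07 to 1.35), was the greatest of the 10 genes. *Tap2* (chr17:34203527-34216321, plus strand), which encodes the partner subunit, had 1668 counts against 1516, or 11.5 and 10.5 RPKM. Its difference of 0.13 (0.03 to 0.24), or 1.10-fold, was the smallest of the 10.

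The change of *Tap1* exceeded that of *Tap2* by 1.07 on the log2 scale (0.90 to 1.25). Per length there was 0.551 *Tap1* for each *Tap2* in CL basal and 0.261 in Ctrl basal, by the exonic lengths of the table. With the length of the principal transcript, an alternative chosen after seeing the data, *Tap1* was nearer to *Tap2*, at 11.7 against 12.6 RPKM in CL basal and 5.07 against 11.5 RPKM in Ctrl basal. *Tap2* shares 533 exonic bases with *Gm15821* and 165 with *Gm20496*, both on the opposite strand, and whether counting used strand is not known here, so reads of these stretches cannot be assigned to it with certainty.

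*Tapbp* (chr17:33915899-33929288, plus strand), which encodes tapasin, had 2830 counts in CL basal against 2231 in Ctrl basal, or 22.3 and 17.6 RPKM. The difference was 0.34 on the log2 scale (0.26 to 0.42), or 1.27-fold. The gene overlaps *Gm19412* on the opposite strand over 665 exonic bases, and *Gm19412* had 887 counts against 693, so the values of both are uncertain. Among the 3 transport and loading genes, only *Tap1* was therefore past the fold.

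*Nlrc5* (chr8:94434356-94527272, plus strand), the transactivator that is drawn to the X and Y boxes of class I promoters, had 1646 counts in CL basal against 793 in Ctrl basal. Its level was 5.04 against 2.43 RPKM, a 2.07-fold difference or 1.05 on the log2 scale (0.93 to 1.17). The gene shares only 78 exonic bases with an opposite-strand transcript that had 35 and 14 counts. *Nlrc5* and *Tap1* were the members with the greatest changes and also 2 of the 4 least abundant per length in Ctrl basal.

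**Figure D2:**
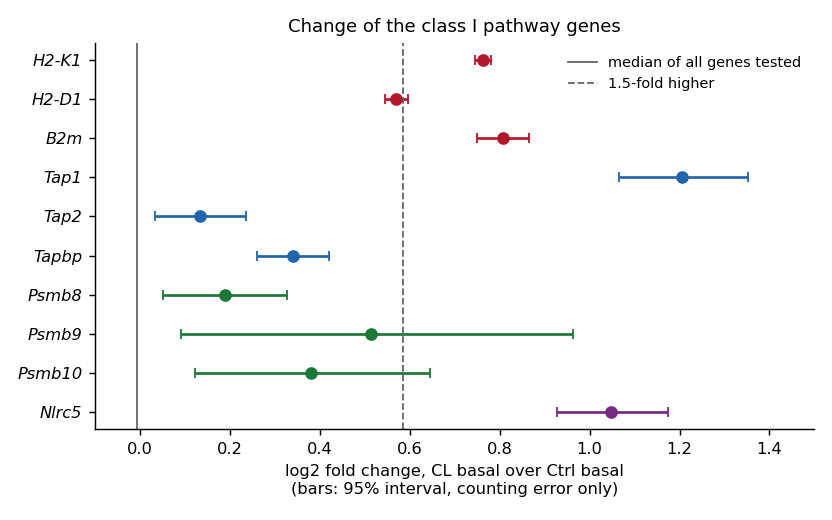
Log2 fold change of CL basal over Ctrl basal for each of the 10 genes, coloured by role (red, class I chains; blue, transport and loading; green, immunoproteasome; purple, *Nlrc5*), with bars for the 95% exact interval of counting error. The solid line marks the median of all tested genes and the dashed line 1.5-fold. *Tap1* (1.21) and *Nlrc5* (1.05) lie farthest to the right, and *Tap2* (0.13) and *Psmb8* (0.19) nearest to the median of all genes.

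None of the 3 immunoproteasome subunits was past 1.5-fold. *Psmb8* (chr17:34197721-34201454, plus strand), which replaces the chymotrypsin-like subunit *Psmb5*, had 928 counts in CL basal against 812 in Ctrl basal, or 8.82 and 7.74 RPKM, a difference of 0.19 on the log2 scale (0.05 to 0.33). *Psmb9* (chr17:34181988-34187764, minus strand), which replaces the caspase-like subunit *Psmb6*, had 111 counts against 77, or 0.789 and 0.549 RPKM. Its difference was 0.51 on the log2 scale, and its interval (0.09 to 0.96) was the widest of the set because the counts were the lowest. *Psmb10* (chr8:105935735-105938444, minus strand), which replaces the trypsin-like subunit *Psmb7*, had 281 counts against 215, or 4.29 and 3.29 RPKM, a difference of 0.38 (0.12 to 0.65).

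The constitutive counterparts were not higher as a group. *Psmb5* had 360 counts in CL basal against 511 in Ctrl basal, −0.51 on the log2 scale, *Psmb6* had 1595 and 1685, −0.08, and *Psmb7* had 2492 and 2263, 0.14. The change of *Psmb8* minus that of *Psmb5* was thus 0.70 (0.46 to 0.94), and most of this difference came from the lower *Psmb5*. The change of *Psmb9* minus that of *Psmb6* was 0.60 (0.16 to 1.06), and that of *Psmb10* minus *Psmb7* was 0.24, with an interval that included 0 (−0.03 to 0.52).

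As a share of each pair per exonic length of the table, *Psmb8* made up 45.1% in CL basal and 33.6% in Ctrl basal. *Psmb9* made up only 3.44% and 2.28%, and *Psmb10* 18.5% and 16%. All 3 shares were higher in CL basal, while the shares themselves depended on the length used. With the length of the longest principal transcript, an alternative chosen after seeing the data, they were 58.7% and 46.7% for *Psmb8*, 3.95% and 2.63% for *Psmb9*, and 9.07% and 7.75% for *Psmb10*. These are shares of transcript and say nothing of assembled proteasomes.

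Other overlaps touch these genes too. *Psmb9* shares 212 exonic bases with *Tap1* on the opposite strand, and *Tap1* had 1330 counts against the 111 of *Psmb9* in CL basal, so without strand a part of the *Psmb9* counts could not be told apart from *Tap1* reads. The change of *Tap1* was greater than that of *Psmb9* by 0.69 on the log2 scale (0.22 to 1.14), although the genes leave from the same short stretch of DNA. *Psmb8* shares 186 exonic bases with *Gm20496*, *Psmb7* shares 405 with *Nek6*, and *Psmb5* contains *Mir686* (109 bases).

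By RPKM on the exonic lengths of the table, the order from most to least abundant in Ctrl basal was *H2-K1*, *H2-D1*, *B2m*, *Tapbp*, *Tap2*, *Psmb8*, *Psmb10*, *Tap1*, *Nlrc5* and *Psmb9*. In CL basal the first 6 and the last places were the same, and *Tap1* and *Nlrc5* stood above *Psmb10*. With the length of the principal transcript, *Psmb8* stood above *Tap2* in both libraries and *Tap1* above *Psmb10* in Ctrl basal too, and the other places were the same. With 1 library per group, whether neighbours in this order differ beyond the spread between samples is unknown. The members spanned a wide range, from ranks 72 and 130 for *H2-K1* to ranks 12384 and 13628 for *Psmb9*.

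Abundance matters for how far a gene can stray, since the spread of the log2 fold changes was narrow among genes with many reads. Among 1505 genes with 10000 counts or more in both libraries together, the median was 0.09 with an SD over genes of 0.24, and 0.598% were past 1.5-fold higher (9 genes). The 3 chains belonged to this class, and *H2-K1* and *B2m* were 2 of those 9 genes. Among 5592 genes with 1000 counts or more but under 10000 the SD was 0.28 and 1.16% were past 1.5-fold higher (65 genes), and of the 5 members there *Tap1* and *Nlrc5* were past it. Among 6410 genes with 100 counts or more but under 1000 the SD was 0.46 and 5.02% were past it, and neither *Psmb9* nor *Psmb10*, the members of that class, was. These comparisons use the contrast that chose the set and are given as a description.

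**Figure D3:**
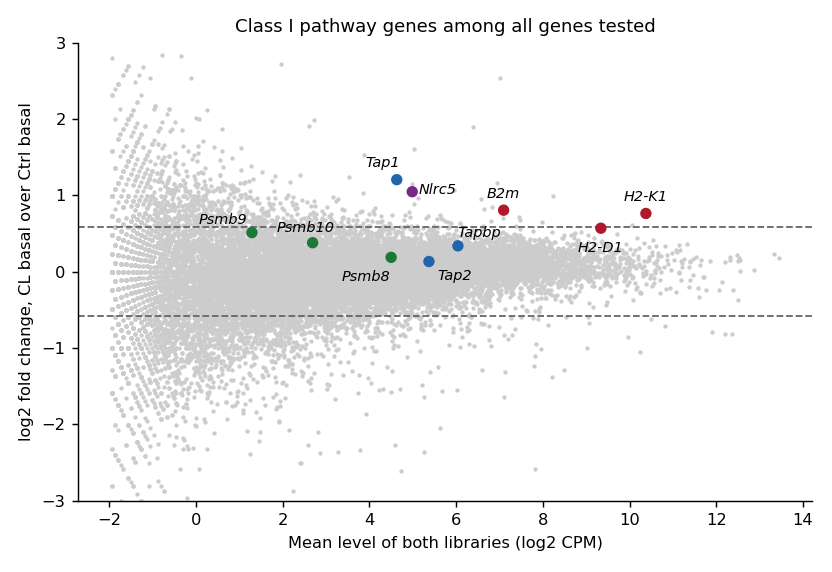
Log2 fold change of CL basal over Ctrl basal against the mean level of both libraries (log2 CPM) for the genes tested, with the 10 class I pathway genes in the colours of their roles and dashed lines at 1.5-fold in each direction. *H2-K1*, *B2m*, *Tap1* and *Nlrc5* lie above the upper line, *H2-D1* just under it, and 40 genes fall outside the plotted range.

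Of 18 other class I heavy chain genes of the MHC 13 were tested, 3 were past 1.5-fold higher and 2 lower, beside 6.33% and 11.7% of all tested genes, and the median was 0.26. *H2-T23*, which encodes Qa-1, a non-classical molecule recognised by receptors of NK cells, had 3164 counts in CL basal against 2048 in Ctrl basal, a difference of 0.62 on the log2 scale. *H2-M3*, which presents formylated peptides, had 324 and 211 counts, a difference of 0.61, and *H2-Q1* had only 37 and 22, a difference of 0.70. *H2-Q2* (31 and 75 counts, −1.23) and *H2-M2* (49 and 100 counts, −1.0) were lower, at counts where the SD over all genes was 0.46. The most abundant of the list by counts, *H2-Q6* (6370 and 4521) and *H2-Q4* (5453 and 4546), differed by 0.49 and 0.26. The Qa genes are near copies of each other, so single values are uncertain.

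Of 6 listed class I-like genes outside the MHC 4 were tested, and 2 were positive and 2 negative, against 48.2% positive of all tested genes. None was past 1.5-fold, and the median was −0.05. *Fcgrt*, the neonatal Fc receptor, had 387 counts in CL basal against 425 in Ctrl basal, −0.14 on the log2 scale, and *Mr1*, which presents vitamin metabolites, had 346 and 265, 0.38 (0.15 to 0.62). Both pair with the same light chain as the classical molecules.

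Chaperones and peptidases of the endoplasmic reticulum and cytosol were mostly slightly higher in CL basal. None of the 12 genes of loading, folding and trimming was past 1.5-fold, 11 were positive, against 48.2% of all tested genes, and the median was 0.13. *Calr*, encoding calreticulin of the peptide-loading complex, had 97663 counts in CL basal against 76518 in Ctrl basal, 0.35 on the log2 scale, and *Hspa5*, a general chaperone, had 78092 and 61396, 0.34. The median of genes with 10000 counts or more was 0.09, as given above. Of 6 proteasome activators and assembly factors none was past 1.5-fold (median 0.13), with *Psme1*, a subunit of the PA28 activator, at 8354 and 6573 counts (0.34) and *Psme4* at 3038 and 2607 (0.22).

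Of 11 other subunits of the 20S proteasome 2 were positive, against 48.2% of all tested genes, none was past 1.5-fold higher and 1 lower, *Psmb3* (393 and 591 counts, −0.59), and the median was −0.05. The subunits with the most counts, *Psma4* (6380 and 6373) and *Psma3* (6056 and 6237), differed by −0.0021 and −0.05 on the log2 scale.

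Transcription factors of the class I promoter were not past 1.5-fold in either direction. All 16 listed genes were tested, 14 were positive and the median was 0.11. *Irf1*, an activator of class I and *Nlrc5* genes, had 4477 counts in CL basal against 3352 in Ctrl basal, a difference of 0.41 on the log2 scale. The NF-kappaB subunits *Nfkb1* (11996 and 10372 counts) and *Rela* (6394 and 6519), the factors with the most counts, differed by 0.21 and −0.03.

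Few counts were found for the listed interferons, which did not include the interferon alpha genes. Of 16 interferon, receptor and signalling genes 10 were tested, none was past 1.5-fold, and the median was 0.03. *Ifng*, encoding interferon gamma, had 2 counts in CL basal against 4 in Ctrl basal, so no fold is given. *Ifnb1*, encoding interferon beta, had 0 counts against 8, and the other 4 listed interferon genes had none in either library. *Socs1*, an inhibitor of interferon signalling, had the greatest change of the list, with 164 counts against 109 and a difference of 0.58 on the log2 scale (0.23 to 0.95), just under 1.5-fold. *Ifnb1* and *Socs1* were named after their values were seen. The kinases of the receptors with the most counts, *Jak1* (13048 and 12495) and *Jak2* (5641 and 6524), differed by 0.06 and −0.21 on the log2 scale.

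A further 3 gene groups were set beside the class I pathway, and they too had been chosen with these values known. Of 10 tested class II genes 7 were past 1.5-fold higher and none lower, beside 6.33% and 11.7% of all tested genes, with a median of 1.44. *H2-Ab1*, a chain of the class II molecule I-A, had 8525 counts in CL basal against 1465 in Ctrl basal (2.54), *Cd74*, the invariant chain, 5079 and 1360 (1.90), *H2-Aa* 404 and 100 (1.99) and *H2-DMa* 55 and 6 (2.83). *Ciita*, the class II counterpart of *Nlrc5*, had only 27 and 25 counts (0.10, interval −0.73 to 0.95), so that counting error alone spanned changes in both directions. *Ciita* and *Nlrc5* belong to the same protein family.

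Of 17 tested GTPases that interferon gamma induces, 12 were past 1.5-fold higher and none lower, beside 6.33% and 11.7% of all tested genes. Their median was 0.76, and they were led by *Gbp2* (6534 and 2899 counts, 1.17), *Gbp7* (1678 and 757, 1.14), *Igtp* (1671 and 783, 1.09) and *Iigp1* (3223 and 1525, 1.07). *Gbp3*, second to *Gbp2* in counts, had 4894 and 2760 (0.82). Of 23 genes stimulated by type I interferon 5 were past it higher and 3 lower, beside 6.33% and 11.7% of all tested genes, with a median of 0.23. *Oasl2* (841 and 289 counts, 1.53), *Oas1a* (102 and 35, 1.49), *Xaf1* (196 and 109, 0.83) and *Rtp4* (220 and 132, 0.72) were among the higher, and *Oasl1* (104 and 211, −1.01), *Rsad2* (374 and 746, −1.0) and *Oas3* (10 and 16, −0.59) were the lower. *Ifit3* (1058 and 946, 0.16) and *Ifit2* (778 and 1026, −0.40), with the most counts of the list, were not past the fold. The class I set, with a median of 0.54 and 4 of 10 past 1.5-fold, lay between the latter groups. The differences between the groups were not tested.

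**Figure D4:**
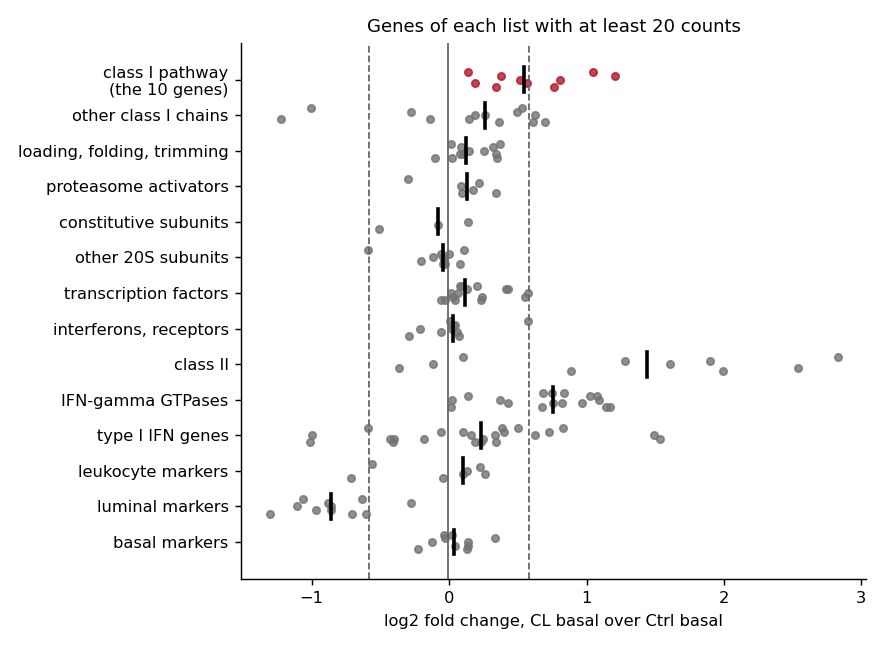
Log2 fold change of CL basal over Ctrl basal for the tested genes of each list (points), with the median of the list (bar) and dashed lines at 1.5-fold. The class I pathway genes (median 0.54) lie to the right of 0 without exception, the class II genes reach 2.83, the other 20S subunits have a median of −0.05 and the luminal markers lie on the left (median −0.86).

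Immune cells can carry class I and class II molecules, and the markers of each immune list summed to under those of the luminal, endothelial and fibroblast lists. In CL basal a single gene gave 596 of the 860 dendritic counts, and another 421 of the 830 macrophage counts. These sums thus rest largely on single genes. Of 10 macrophage markers 6 were tested, and 2 were past 1.5-fold lower and none higher, beside 11.7% and 6.33% of all tested genes. All 10 summed to 21.6 CPM in CL basal against 22.8 CPM in Ctrl basal. *Fcgr1* had 4 counts against 0. Dendritic cell markers (9 genes) summed to 22.4 and 25.5 CPM. Of 7 tested, 2 were past 1.5-fold higher and 1 lower, beside 6.33% and 11.7% of all tested genes. These rested on few counts, *Xcr1* with 26 against 14, *Ccr7* with 81 against 53 and *Itgax*, the lower one, with 18 against 42. *Cd209a* and *Cd207* had 2 counts each against 0. For these and *Fcgr1* the counts were too few to tell presence from absence. The 6 B cell markers summed to 9.05 and 9.33 CPM, with 1 past the fold higher, beside 6.33% of all tested genes. The 9 T and NK cell markers summed to 6.22 and 5.74 CPM, with none of 6 tested past the fold and *Klrb1c* and *Ncr1* at 0 in both libraries. The part of these cells in the class I values was not tested.

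Endothelial markers (5 genes) summed to 309 CPM in CL basal and 389 CPM in Ctrl basal, with none past the fold. Fibroblast markers (6 genes) summed to 204 and 249 CPM, with 2 past the fold lower, beside 11.7% of all tested genes. All 5 endothelial genes were detected although CD31-positive cells had been gated out, and *Pecam1*, which encodes CD31, had 4266 and 5503 counts. The part of these cells in the class I values was not tested either.

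Of the 10 genes 7 lie in or beside the MHC on chromosome 17, among class II genes, other class I chains and genes of neither kind. Between *Kifc1* at −297 kb and *Gm8741* at 1148 kb from the start of *Psmb9*, 100 genes were tested, with a median of −0.0036. Of these, 11 were past 1.5-fold higher and 10 lower, beside 6.33% and 11.7% of all tested genes. The 7 class I pathway genes had a median of 0.51 (2 past the fold), the 8 class II genes one of 1.44 (6 past it) and the 2 other class I chains one of 0.44 (1 past it). The 83 genes of neither kind had a median of −0.06, with 2 past the fold higher and 10 lower, again beside 6.33% and 11.7%. Within 50 kb of the *Psmb9* start *Tap1*, *Tap2*, *Psmb8* and *Psmb9* sit side by side. There 2 of 8 tested genes were past the fold higher, *Tap1* and a class II gene, and none lower, beside the same shares. The 3 members elsewhere, *B2m* on chromosome 2 and *Psmb10* and *Nlrc5* on chromosome 8, differed by 0.81, 0.38 and 1.05.

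**Figure D5:**
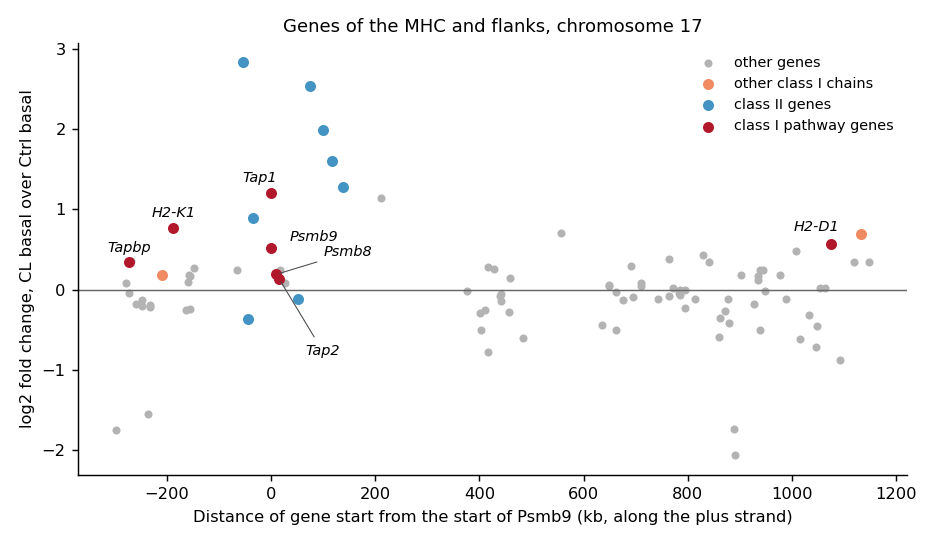
Log2 fold change of CL basal over Ctrl basal for the 100 tested genes around the MHC, against the distance of the gene start from that of *Psmb9* in kb along the plus strand, with class I pathway genes in red, other class I chains in orange, class II genes in blue and the remaining genes in grey. The red and most of the blue points lie above 0 while the grey points scatter about it (median −0.06).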

How the data were processed

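Per the labels, RNA of sorted mammary basal cells was extracted with an RNeasy kit and made into libraries with a SMARTER mRNA-Seq kit, while the methods of the study name another RNA reagent. The authors deposited a table of raw counts over annotated exons for 2 libraries, with gene coordinates and lengths. The submitters' processing notes name GRCm38 and mm10, and the aligner, annotation release, read length and use of strand were not given in the sources used here. Columns with a ratio and its log2 held the authors' own comparison and were not used. Of 49492 genes, 47154 were found by name at an overlapping place in GENCODE M21, 91% of these with the same start and end (7 of the 10 class I genes), and 26 gene names had been turned into dates.

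Counts were scaled by TMM factors (edgeR 4.0.16, R 4.3.3; 0.9868 for CL basal, 1.013 for Ctrl basal) computed on genes with a sum of at least 20 counts. A prior count of 2, scaled by library size, was added before log2 fold changes were taken. RPKM used the exonic length of the table. The 95% intervals are exact (Clopper-Pearson) for the share of the reads of a gene in CL basal, and conditional exact for the difference of 2 genes (scipy 1.17.1, Python 3.11.15). Intervals and floors (3 counts) cover counting error only and are too narrow: 68.7% (CL basal) and 67.9% (Ctrl basal) of counts from 1 to 20 were even, against 49.9% and 49.7% above 1000, so both mates of a pair appear to count. With 1 library per group no model with a spread between samples can be fitted, and no p-value is given. The calculation was tested on simulated data.

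The genes, lists, motifs and thresholds were chosen with earlier results of these data known. Beside the 10 genes, the text names from each pathway list (not the marker lists) up to 4 genes past 1.5-fold in each direction, the 2 with the most counts, the counterparts of the immunoproteasome subunits, and *Ciita*, *Irf1* and *Ifng*. An item that this rule also takes is not reported here. Flanking genes of the region, markers at 0, overlapping genes, *Ifnb1*, *Socs1*, *Pecam1*, *Xcr1*, *Ccr7* and *Itgax* were named after their values were seen. Sequences came from RefSeq (GRCm38.p6) and transcripts from GENCODE M21.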

Additional observations from a re-analysis of the deposited data

How the results depend on the processing

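No paired analysis was possible because there was 1 library a group, and no library could be left out. Over 11 alternatives (total counts, DESeq2 1.42.0 size factors or the upper quartile for scaling; a prior count of 0.5 or 5; no filter or at least 100 counts; counts halved; the deeper library thinned; a trend on mean expression removed; and, chosen after seeing the data, scaling by the other 20S subunits), all 10 genes remained higher in CL basal, 103 of 110 values lay within the counting interval of the reported value and 7, of *H2-K1*, *H2-D1* and *B2m*, outside it. Both filter settings leave the value of a kept gene unchanged by construction, so their values within the interval are no support. The median of the set ranged from 0.50 to 0.59, and that of all genes from −0.04 (total counts) to 0.04 (20S subunits). The count of the set past 1.5-fold stayed at 4 in 9 of them and was 5 with the trend removed, where *Psmb9* (0.61) joined and *H2-D1* stood at 0.49, and 5 with the 20S scaling, where *H2-D1* (0.62) joined. At a 2-fold threshold it was 2, with 360 genes higher and 831 lower. Over all genes 3309 were higher and 5315 lower without a filter, 396 and 937 with at least 100 counts, and 1421 and 1637 with the trend removed, against 1098 and 2029. The differences within the subunit pairs kept their direction under each alternative tried for them, namely the prior counts, the filters, halving and thinning. Here too the filters could change nothing, and other scalings and removal of the trend were not tried for the pairs. With the length of the principal transcript, the share of *Psmb8* in CL basal was 58.7% and that of *Psmb10* 9.07%.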
